A study of Mus musculus with 6 samples.

Results

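The 9 genes described here encode the plasma membrane amino acid transporters that mammalian cells are known to raise under amino acid or endoplasmic reticulum stress: Slc7a11, Slc7a5, Slc3a2, Slc1a4, Slc1a5, Slc7a1, Slc38a1, Slc38a2 and Slc6a9. The set is a list of gene symbols drawn up with earlier results of these data known, so that its overall direction is a description, and all 9 of 9 were present among the 25124 symbols of the deposited table. Transcript levels were measured by sequencing of polyadenylated RNA in 3 libraries of RAW264.7 cells labelled E4BP4 knockout and 3 libraries of control RAW264.7 cells. RAW264.7 is a macrophage-like mouse line from a tumour induced by a leukaemia virus, and both groups were grown untreated in glucose-rich medium with serum. E4BP4 is a transcriptional repressor of the bZIP family encoded by Nfil3. The labels do not say how the knockout was made, whether the cells were 1 clone, or whether the replicates were separate cultures, so that the p-values measure only the spread between these libraries.

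Amino acid import is coupled to translation by the integrated stress response. When a kinase such as GCN2 senses uncharged tRNA, or PERK senses misfolded protein, phosphorylation of the initiation factor eIF2 lowers general translation and favours translation of ATF4, a bZIP activator. ATF4 binds composite elements shared with C/EBP factors in genes for amino acid uptake, synthesis and tRNA charging. The transporters divide the work: heteromeric exchangers join a light chain that carries the substrate to the heavy chain that brings it to the membrane, sodium-coupled carriers concentrate small neutral amino acids in the cell, and exchangers trade these for essential ones. In macrophages the same proteins supply cystine for glutathione, arginine for nitric oxide and polyamines, and leucine for mTORC1.

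The recovered depth was 18.4 M, 19.9 M and 19.5 M reads (M, mega) in knockout-labelled libraries, against 18.1 M, 18.1 M and 15.6 M in control libraries. Nfil3 itself read 104.6, 104.0 and 99.8 TPM (reads scaled by transcript length and by library) under the knockout label and 29.5, 29.9 and 31.0 TPM in the controls, so that the targeted transcript was higher, not lower, where the labels say knockout. Directions below therefore follow the labels, and a gene-level value does not show whether the protein was lost. All 10 macrophage markers reached 1 TPM in every library, and their summed level ran from 4179 to 4324 TPM under the knockout label, against 3010 to 3237 TPM in the controls. The markers did not move together: by the limma call described below, 3 were higher, 5 lower and 2 not called. Their log2 fold changes ran from −1.68 to 1.05. Of all tested genes, 26.7% were called higher and 23.4% lower. Among 6 listed T cell markers, Lck alone reached 1 TPM, and the sum was 4.10 to 4.22 against 2.58 to 2.71 TPM. Neutrophil markers summed to 5.17 to 6.19 TPM under the knockout label, against 4.51 to 5.98 TPM in the controls, nearly all from S100a8, with S100a9 and Mpo at 0 in every library. The B cell, fibroblast, epithelial and endothelial sums stayed under or near 1 TPM in all libraries, the highest being 0.955 TPM under the knockout label, against 1.08 TPM in the controls, both for fibroblast markers. The part of these marker differences in the results was not tested.

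All 9 transporters were higher under the knockout label than in control cells, and for none did the groups overlap. The smallest difference was 1.18-fold for Slc38a1 and the largest were 5.40-fold for Slc7a11 and 4.63-fold for Slc1a4. The call rests on limma on log2(TPM + 1) with an adjusted p under 0.05, over genes with at least 1 TPM in at least 3 libraries. Of the 11257 genes tested, 26.7% were called higher by that rule, 23.4% were called lower, 50.1% were called in either direction, and 31.3% lay higher without overlap. Of the 9, 8 reached 1 TPM in all 6 libraries, whereas Slc7a11 was tested only through the libraries labelled knockout, and it had to differ to be tested. Their median log2 fold change was 0.81, against 0.02 over all genes tested. In bulk RNA, fewer cells of a type and less RNA per cell cannot be told apart.

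**Figure D1:**
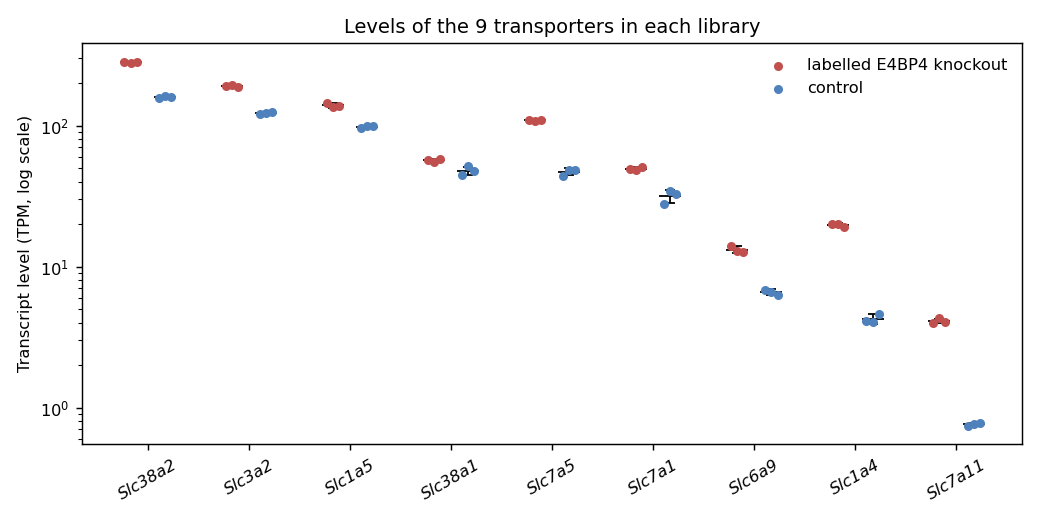
Transcript level of each transporter in each library, in TPM on a log axis, with libraries labelled E4BP4 knockout in red to the left of the controls in blue; points are libraries, horizontal bars are means and vertical bars are SD (n = 3 each). Every red group lies above its blue group, with the smallest step at Slc38a1 (56.6 against 47.9 TPM) and the largest at Slc7a11 (4.01 to 4.30 against 0.738 to 0.778 TPM).

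Slc7a11 encodes xCT, the light chain of the cystine/glutamate exchanger, which brings in cystine for glutathione synthesis. It lies on chromosome 3 from 50364936 to 50443613 of mm10, on the minus strand, with 12 exons in GENCODE M21 (transcript NM_011990). It was the lowest of the set, at 4.01, 4.30 and 4.03 TPM in knockout-labelled libraries, against 0.738, 0.766 and 0.778 TPM in the controls. Every library labelled knockout was above 4 TPM and every control under 1 TPM. The values rested on 569, 666 and 605 reads under the knockout label and 107, 107 and 95 reads in the controls. The log2 fold change was 1.54 (SE 0.0834, 95% interval 1.35 to 1.72, limma adjusted p = 7.11e-07), and 37 of the tested genes had a higher one. The pseudocount shrinks so low a gene: the same difference was 2.41 by limma-voom on recovered reads, 2.29 with a pseudocount of 0.1, and 2.42 in the authors' deposited table.

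The mouse Slc7a11 promoter is known for paired amino acid response elements, so its letters are shown. The RefSeq promoter table (GRCm38.p6) covers 250 bases before to 50 after an annotated start, and it had entries for 6 of the 9 genes: Slc7a11, Slc3a2, Slc1a4, Slc7a1, Slc38a2 and Slc6a9. Slc7a5, Slc1a5 and Slc38a1 had none. The 8 letters TGATGNAA, the core of the C/EBP-ATF response element (CARE), were searched on both strands. In the 250 bases before the start they occurred in 3.45% of 32851 promoters. Slc7a11 held 2 matches, at bases −66 to −59 on the strand of the gene and −47 to −40 on the other strand, both within the stretch printed here. The second stretch shows Slc1a4, where 1 match on the other strand crosses the start itself, from base −4 to base 4. It counts only in the longer window, in which 3.97% of promoters hold a match. Capitals mark the matches.
Slc7a11, chr3:50443638-50443694, minus strand: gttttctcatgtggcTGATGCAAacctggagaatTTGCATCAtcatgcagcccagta
Slc1a4, chr11:20332710-20332739, minus strand: agcctccagcgtgcctcctgcgTTGCATCA
The other 4 genes with an entry held no CARE match in either window. The D-box, to which E4BP4 binds, was searched as TTATGTAA, TTACATAA, TTACGTAA or TTATATAA, of which the last 2 read the same on both strands. It occurred in 1.43% of all promoters and in none of the windows of these 6 genes. For Slc6a9 the nearest annotated start lay 352 bases from that of the transcript measured. The 250 bases before the measured Slc6a9 start were therefore not searched for any motif. A match describes letters in a window and no binding was measured.

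The motif TGACNNNGC is the core of the antioxidant response element bound by NRF2, another activator of Slc7a11. It was searched on both strands, occurred in 10.2% of promoters in the 250 bases before the start, and was not present in the Slc7a11 window. Slc38a2 held 1 match at bases −27 to −19, shown because its start is the start of the transcript the authors measured. The other matches, in Slc7a1 and Slc6a9, lay at starts 7089, 13740 and 19937 bases away from that of the transcript measured.
Slc38a2, chr15:96699732-96699770, minus strand: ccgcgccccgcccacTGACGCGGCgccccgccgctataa

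**Figure D2:**
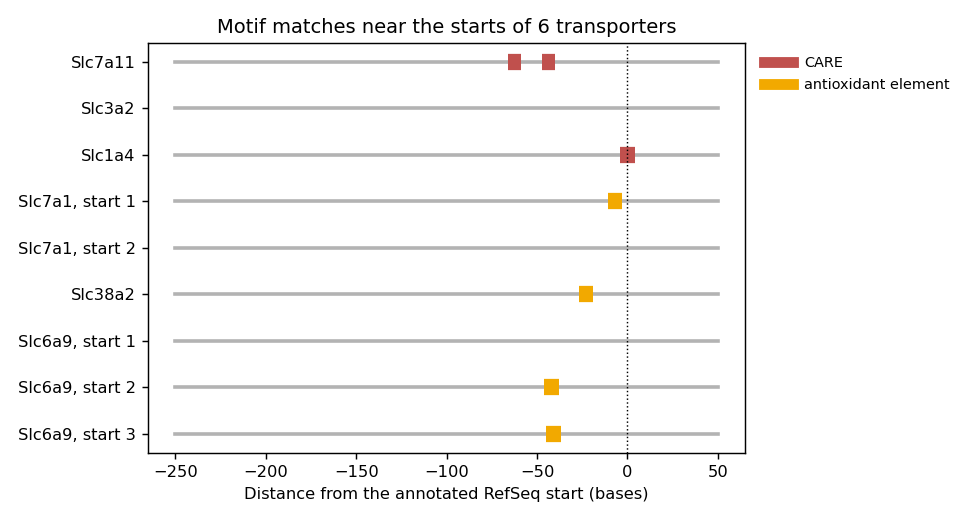
Motif matches in the RefSeq promoter windows of 6 transporters, as distance in bases from the annotated start (dotted line); red blocks are CARE matches and orange blocks antioxidant element matches, on either strand. Slc7a11 holds 2 CARE matches before its start, Slc1a4 holds 1 across its start, and no D-box match was found.

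Slc7a5 encodes LAT1, the light chain that takes in leucine and other large neutral amino acids in exchange for glutamine. The Slc7a5 gene lies on chromosome 8 from 121881146 to 121907686 of mm10, minus strand, with 10 exons (NM_011404). It measured 110.4, 107.5 and 109.8 TPM in knockout-labelled libraries, against 44.2, 48.6 and 48.7 TPM in the controls. The lowest library labelled knockout was more than 50 TPM above the highest control. Slc7a5 had a log2 fold change of 1.2 (SE 0.0449, 95% interval 1.10 to 1.30, limma adjusted p = 6.86e-08), and the ratio of means was 2.32.

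Slc3a2 encodes CD98, the heavy chain that both light chains need to reach the membrane. It lies on chromosome 19 from 8706882 to 8713897, minus strand (NM_008577), with 9 exons in the paired GENCODE transcript, which has 1819 exon bases against 2561 for the transcript measured. It measured 191.4, 193.9 and 187.9 TPM in knockout-labelled libraries, against 121.6, 122.5 and 124.7 TPM in the controls. Both groups were tight, with coefficients of variation of 1.59% and 1.32%, and did not overlap. Its log2 fold change was 0.63 (SE 0.0331, 95% interval 0.56 to 0.71, limma adjusted p = 5.51e-07).

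The heavy chain was thus 1.55-fold higher while its light chains differed among themselves. Slc7a8 (LAT2), Slc7a6 (y+LAT2) and Slc7a7 (y+LAT1) share CD98 with Slc7a5 and Slc7a11. Slc7a8 measured 71.0, 68.5 and 75.5 TPM under the knockout label, against 65.5, 70.7 and 64.6 TPM in the controls, so that the groups overlapped (log2 fold change 0.10, limma adjusted p = 0.132). Slc7a6 averaged 21.1 ± 0.931 and 22.04 ± 0.321 TPM (SD, n = 3 each) and did not pass either (log2 fold change −0.06, limma adjusted p = 0.309). Slc7a7, which exports cationic amino acids, fell to 8.80 ± 0.538 TPM in the libraries labelled knockout, against 11.2 ± 1.06 TPM in the controls (log2 fold change −0.32, limma adjusted p = 0.00582).

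The shares of the light chains in their summed transcripts did not overlap between the groups. Slc7a5 made up 51.2%, 51.3% and 50.04% of the summed TPM of these 5 light chains in knockout-labelled libraries, against 30.6%, 31.7% and 33.3% in the controls. It outnumbered Slc7a8 under the knockout label, at a mean of 50.8% against 33.3% for Slc7a8, while in the controls Slc7a8 was ahead, at 45.2% against 31.8% for Slc7a5. Slc7a11 held 1.86%, 2.05% and 1.84% of the sum under the knockout label and 0.510%, 0.499% and 0.532% in the controls. The ratio of the light chain sum to Slc3a2 was 1.13, 1.08 and 1.17 under the knockout label and 1.19, 1.25 and 1.17 in the controls. That ratio lay within a narrow band, with groups that only just failed to overlap, and over shares of recovered reads its difference had an exact permutation p of 0.3. The Slc7a5 share differed by 19.0 percentage points and the Slc7a11 share by 1.40. Over recovered reads, which are not divided by the length of the transcript, these differences were 17.3 and 3.42 points. For each of 5 such shares and ratios the exact two-sided permutation p was 0.1, the smallest that 3 against 3 libraries allow, and 0.1 after Benjamini-Hochberg adjustment over the 5, so that none could pass a threshold of 0.05.

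**Figure D3:**
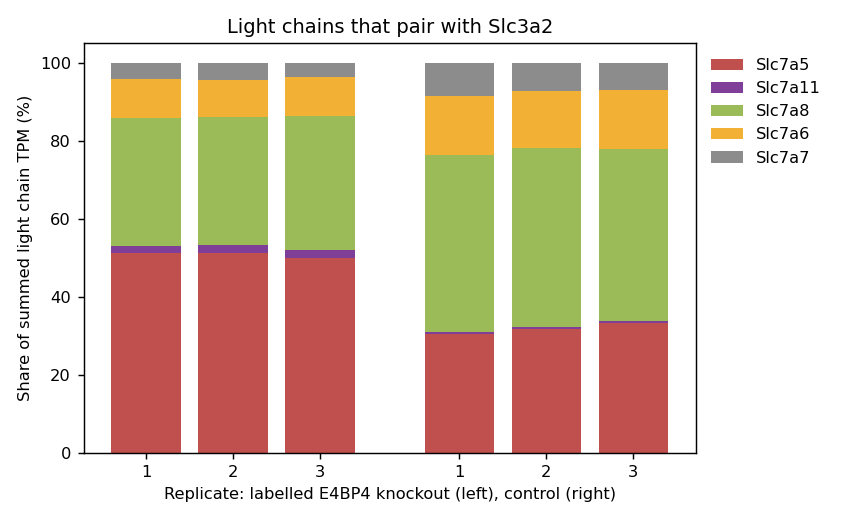
Share of each of 5 light chains in their summed TPM, in percent, as stacked bars for each library, with libraries labelled E4BP4 knockout on the left and controls on the right. Slc7a5 takes 50.04 to 51.3% of the sum under the knockout label and 30.6 to 33.3% in the controls, and Slc7a11 is the thin band above it.

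Slc1a4 encodes ASCT1, a sodium-dependent exchanger of serine, alanine, cysteine and threonine. The Slc1a4 gene lies on chromosome 11 from 20302180 to 20332713, minus strand, with 8 exons (NM_018861). It measured 20.2, 19.9 and 19.0 TPM in knockout-labelled libraries (1220, 1312 and 1209 reads), against 4.09, 4.03 and 4.65 TPM in the controls (252, 239 and 241 reads). The lowest library labelled knockout was thus about 4 times the highest control. Its log2 fold change was 1.98 (SE 0.0628, 95% interval 1.84 to 2.12, limma adjusted p = 4.29e-08), the largest of the 9 on this scale, with 15 tested genes above it. By limma-voom on recovered reads and in the authors' deposited table it was 2.20.

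Slc1a5 encodes ASCT2, the related exchanger that carries glutamine as well. It lies on chromosome 7 from 16781346 to 16798274, plus strand, with 9 exons (NM_009201). It measured 145.6, 136.2 and 136.8 TPM in knockout-labelled libraries, against 96.3, 99.8 and 99.0 TPM in the controls, without overlap. Its log2 fold change was 0.50 (SE 0.0388, 95% interval 0.41 to 0.59, limma adjusted p = 7.13e-06), a ratio of 1.42. Slc1a4 made up 12.2%, 12.8% and 12.2% of the Slc1a4 and Slc1a5 sum under the knockout label and 4.07%, 3.88% and 4.48% in the controls (exact permutation p = 0.1), so that ASCT2 transcripts were the more abundant in every library.

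Slc38a2 encodes SNAT2, the sodium-coupled carrier of small neutral amino acids whose transcript is known to rise on amino acid withdrawal. The Slc38a2 gene lies on chromosome 15 from 96687392 to 96699728, minus strand, with 16 exons (NM_175121). It was the most abundant of the set in every library, at 282.8, 279.4 and 284.3 TPM under the knockout label, against 158.3, 162.0 and 160.1 TPM in the controls. It was also the most deeply read of the 9, with 20236, 21806 and 21487 reads under the knockout label and 11561, 11393 and 9839 in the controls. Slc38a2 had a log2 fold change of 0.81 (SE 0.0318, 95% interval 0.74 to 0.89, limma adjusted p = 8.6e-08), a ratio of 1.76.

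Slc38a1 encodes SNAT1, a carrier of glutamine with the same mechanism. It lies 45.0 kb from Slc38a2 on the same strand, from 96571418 to 96642343, with 16 exons (NM_001166456). It measured 56.6, 55.2 and 58.0 TPM in knockout-labelled libraries, against 44.9, 51.4 and 47.4 TPM in the controls. The lowest library labelled knockout exceeded the highest control by less than 4 TPM, the narrowest gap relative to level in the set. The log2 fold change was 0.24 (SE 0.0516, 95% interval 0.12 to 0.35, limma adjusted p = 0.00388), and 2153 tested genes had a higher one. Of the summed TPM of this pair of neighbours, Slc38a1 held 16.7%, 16.5% and 16.9% under the knockout label and 22.1%, 24.1% and 22.9% in the controls, a difference of −6.31 percentage points (exact permutation p = 0.1).

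Slc7a1 encodes CAT1, the carrier of arginine, lysine and ornithine, which works without a heavy chain. The Slc7a1 gene lies on chromosome 5 from 148327410 to 148392815, minus strand, with 13 exons (NM_001301424). It measured 49.0, 48.7 and 51.2 TPM in knockout-labelled libraries, against 27.7, 34.3 and 32.6 TPM in the controls. The controls spread more than for any other of the 9, with a coefficient of variation of 10.8%, and still lay wholly below the libraries labelled knockout. Slc7a1 had a log2 fold change of 0.64 (SE 0.0697, 95% interval 0.49 to 0.80, limma adjusted p = 5.65e-05). Slc7a2, the related inducible carrier of cationic amino acids, averaged 5.26 ± 0.199 and 5.02 ± 0.198 TPM (SD, n = 3 each) and was not called (log2 fold change 0.06, limma adjusted p = 0.495).

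Slc6a9 encodes GLYT1, a glycine carrier driven by sodium and chloride. The Slc6a9 gene lies on chromosome 4 from 117835610 to 117869304, plus strand (NM_001369016). It measured 14.0, 12.9 and 12.7 TPM in knockout-labelled libraries, against 6.87, 6.65 and 6.25 TPM in the controls, without overlap. Slc6a9 had a log2 fold change of 0.90 (SE 0.0608, 95% interval 0.77 to 1.04, limma adjusted p = 2.83e-06), a ratio of 2.0. Of 5141 exon bases annotated for the gene, 1555 (30.2%) overlap exons of neighbouring genes on the other strand. Within the span of the measured transcript, this holds for 1428 of 3876 exon bases. The library kit does not keep the strand of a read. Of these neighbours B4galt2 had 0 to 3 reads and Ccdc24 1 to 5 reads per library, against 258 to 677 for Slc6a9, while the level of Gm17114 was not analysed here. For the other 8 transporters, 0 bases of any GENCODE exon of the gene within the span of the measured transcript overlapped an exon of another gene.

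Ranked by level, the set kept much the same order under both labels. In the libraries labelled knockout it ran Slc38a2, Slc3a2, Slc1a5, Slc7a5, Slc38a1, Slc7a1, Slc1a4, Slc6a9 and Slc7a11, and no neighbours overlapped in range. In the controls Slc38a1 and Slc7a5 stood side by side, at 47.9 ± 3.29 and 47.1 ± 2.56 TPM with overlapping ranges, and Slc6a9 lay above Slc1a4. Slc7a5 thus stood clear of Slc38a1 under the knockout label alone, and Slc1a4 and Slc6a9 changed places.

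Summed over the 9 genes, transporter transcripts came to 874.1, 858.1 and 863.6 TPM in knockout-labelled libraries, against 504.6, 530.0 and 524.2 TPM in the controls. The means were 865.3 ± 8.17 and 519.6 ± 13.3 TPM (SD, n = 3 each), 1.67-fold apart. The abundant genes carried the difference of 345.7 TPM: Slc38a2 made 35.3% of it, Slc3a2 19.7%, Slc7a5 18.0% and Slc1a5 11.9%. Slc7a11 and Slc1a4, first by ratio, made 0.969% and 4.47%. Called higher with a log2 fold change of at least 1, as were 1.06% of the tested genes, were 3 members, Slc1a4, Slc7a11 and Slc7a5. Of these, Slc7a11 was tested only through the libraries labelled knockout and had to differ to be tested, so that it cannot be set against that share.

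Most other amino acid transporters were either too low to test or did not pass. Of 58 further transporters in the table, from lists of heavy chain partners, other plasma membrane carriers, lysosomal carriers and mitochondrial carriers, 27 could be tested: 2 rose, 7 fell and 18 did not pass. Beside these counts, 26.7% of all tested genes were called higher and 23.4% lower, so that the falls were about as frequent as among all genes. Their median log2 fold change was −0.06, with a range of −0.46 to 0.63, and both that rose were in the lysosomal list. Another 31 were too low to test, 9 of them at 0 in all 6 libraries.

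At the plasma membrane, 5 of 28 further carriers could be tested. Slc43a2 (LAT4), which lets out branched-chain amino acids without exchange, fell to 20.5 ± 1.496 TPM in the libraries labelled knockout, against 25.5 ± 1.71 TPM in the controls (SD, n = 3 each; log2 difference −0.31, limma adjusted p = 0.00352). The taurine carrier gene Slc6a6, abundant at 108.1 ± 3.67 and 116.2 ± 5.17 TPM, did not pass (log2 fold change −0.10, limma adjusted p = 0.0741). Nor did Slc16a10, which carries aromatic amino acids, or Slc38a6, with log2 fold changes of −0.05 and −0.01.

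Of 9 tested lysosomal or endosomal carriers, 2 rose, 3 fell and 4 did not pass, beside 26.7% of all tested genes higher and 23.4% lower. Slc38a7 (SNAT7), which exports glutamine from lysosomes, rose to 17.3, 16.6 and 16.7 TPM under the knockout label, against 10.6, 10.4 and 10.6 TPM in the controls (log2 fold change 0.63, limma adjusted p = 5.24e-06). Slc36a4, the other carrier gene that rose, averaged 22.95 ± 1.09 and 17.95 ± 1.26 TPM (log2 fold change 0.34, limma adjusted p = 0.00113). The histidine and peptide carrier gene Slc15a3, which is more abundant than any of the 9 stress transporters, fell to 368.2 ± 11.1 TPM, against 471.2 ± 5.74 TPM in the controls (log2 fold change −0.36, limma adjusted p = 3.23e-05). Slc36a1 and Slc15a4 fell by 0.20 and 0.17 on the log2 scale. Slc38a9, the lysosomal arginine sensor of mTORC1, averaged 3.68 ± 0.173 and 3.46 ± 0.249 TPM and did not pass.

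Of 9 tested mitochondrial carriers, 2 fell and 7 did not pass, beside 23.4% of all tested genes called lower. Slc25a38, a glycine carrier for haem synthesis, fell to 12.8 ± 1.08 TPM in the libraries labelled knockout, against 18.0 ± 0.552 TPM in the controls (log2 fold change −0.46, limma adjusted p = 2.34e-04). Slc25a13, the aspartate/glutamate carrier citrin, fell to 43.6 ± 0.583 TPM, against 56.9 ± 4.46 TPM (log2 fold change −0.37, limma adjusted p = 3.86e-04). The serine carrier gene Sfxn1 stood at 45.1 ± 1.93 and 44.9 ± 2.44 TPM.

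**Figure D4:**
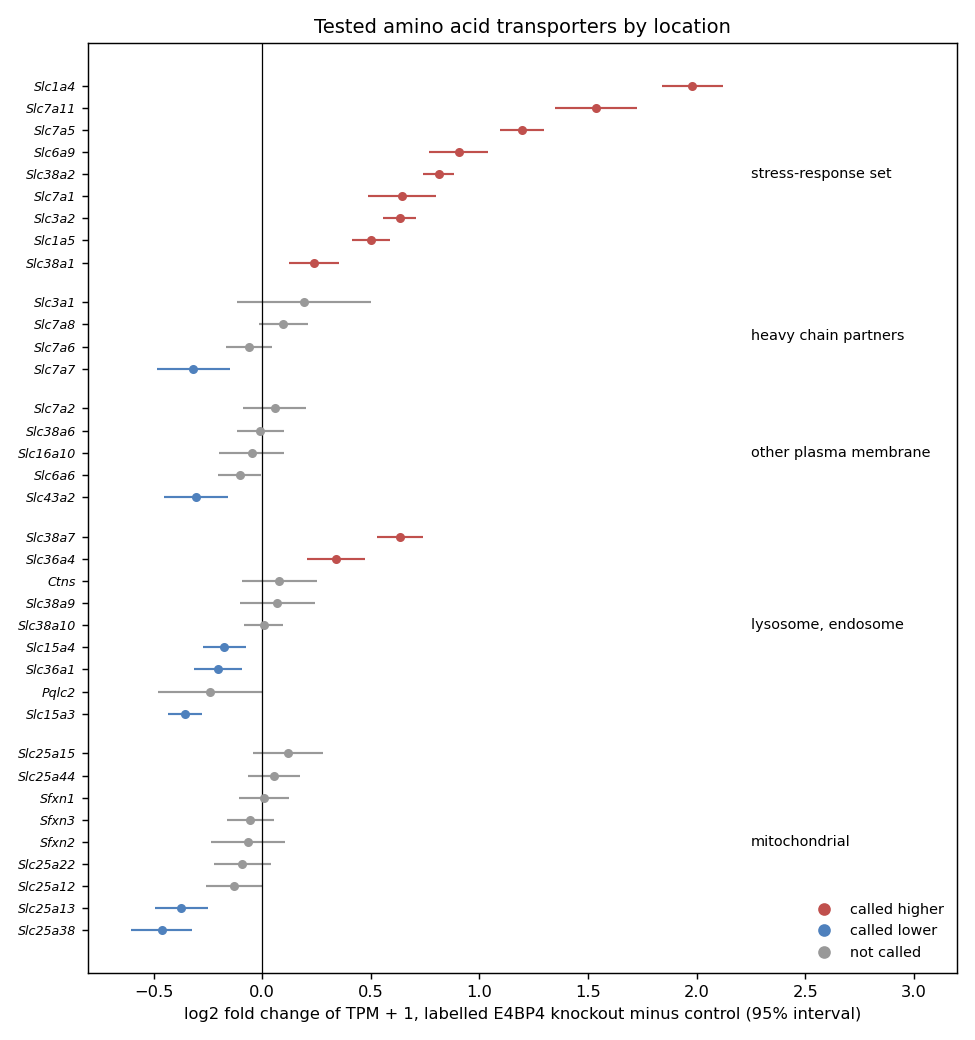
Log2 fold change of TPM + 1 in the libraries labelled E4BP4 knockout minus controls for the 9 stress-response transporters and 27 other tested amino acid transporters, grouped by location; points are limma estimates, lines are 95% intervals, and colours give the call over all genes. The 9 in the top group lie between 0.24 and 1.98, and those in the other groups between −0.46 and 0.63.

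Most genes on a list of the integrated stress response were higher as well. The list held kinases and transcription factors of that response and known ATF4 targets such as Asns, Chac1 and Sesn2. Of 19 tested genes of that list, 16 were higher, 2 lower and 1 did not pass, with a median log2 fold change of 0.75. The 2 that were lower were kinases. Over all tested genes the shares were 26.7% higher and 23.4% lower. Atf4 transcripts measured 731.3, 730.8 and 700.6 TPM under the knockout label, against 371.4, 349.4 and 355.4 TPM in the controls, without overlap (log2 fold change 1.00, limma adjusted p = 6.86e-08). Chac1, which degrades glutathione, stood at 92.5 ± 2.13 and 9.30 ± 0.677 TPM, 9.95-fold higher. Ddit3 (CHOP) was 5.03-fold and Trib3, a pseudokinase that restrains the pathway, 3.96-fold higher.

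Among the 4 eIF2 kinases the transcripts moved both ways. Eif2ak4 (GCN2), the sensor of uncharged tRNA, rose by 0.22 and Eif2ak3 (PERK) by 0.17 on the log2 scale, whereas Eif2ak2 (PKR) and Eif2ak1 (HRI) fell by 0.48 and 0.19. Ppp1r15a (GADD34), which recruits a phosphatase to eIF2, rose to 30.5 ± 1.26 TPM under the knockout label, against 10.3 ± 0.235 TPM in the controls. Asns, the asparagine synthetase gene that is a standard reporter of the amino acid response, differed by far less, at 106.1 ± 3.74 and 87.6 ± 4.31 TPM (log2 fold change 0.27, limma adjusted p = 8.74e-04).

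Enzymes that use the carried amino acids were mostly higher, with those of glutathione the other way. Of 26 tested, 17 were higher, 5 lower and 4 did not pass, with a median of 0.26, beside 26.7% of all tested genes higher and 23.4% lower. Among the 26, Cbs was tested only through the libraries labelled knockout. Cth, which releases cysteine from cystathionine and so bypasses cystine import, rose to 135.5, 142.0 and 129.7 TPM under the knockout label, against 59.7, 55.7 and 55.4 TPM in the controls (log2 fold change 1.24, limma adjusted p = 6.86e-08). Gpt2, the mitochondrial alanine aminotransferase gene, was 2.53-fold, Bcat1, which transaminates leucine, 2.0-fold, and Odc1, which makes putrescine from ornithine, 1.97-fold higher. The 5 that fell were Asl of the urea cycle (log2 fold change −0.54) and the glutathione genes Gss (−0.45), Gsr (−0.42), Gclc (−0.18) and Gclm (−0.12). Phgdh, the first enzyme of serine synthesis, was named after its values were seen: it averaged 0.0107 TPM under the knockout label, against 0 TPM in the controls, too low to test, while Psat1 and Shmt2 of the same route rose by 0.47 and 0.44 on the log2 scale.

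Of 12 tested targets of NRF2, the other known activator of Slc7a11, 8 were lower, 2 higher and 2 did not pass, with a median of −0.14. Over all tested genes the shares were 23.4% lower and 26.7% higher. Gclm and Tkt were close to the threshold (limma adjusted p = 0.048 and 0.0475), and 6 to 8 were lower with each library left out in turn. Me1, malic enzyme, fell to 5.77 ± 0.523 TPM under the knockout label, against 10.0 ± 0.733 TPM in the controls (log2 fold change −0.70, limma adjusted p = 5.38e-05). Hmox1, haem oxygenase, was 1.2-fold lower, and Prdx1 and Osgin1 were the 2 that rose, by 0.29 and 0.20. This list shares Gclc, Gclm, Gsr and Txnrd1 with the enzymes above. Likewise, Asns counts in both the integrated stress response list and the enzyme list. Sesn2 counts in both the integrated stress response list and the amino acid sensing list below.

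Genes of amino acid sensing and of mTORC1 itself, with Tfeb and Tfe3, were called about as often as all tested genes. Of 30 tested, 8 were higher, 8 lower and 14 not called, with a median of 0.02. Over all tested genes the shares were 26.7% higher and 23.4% lower. The ATF4 target Sesn2, a leucine sensor, was 3.06-fold higher at 39.4 ± 1.19 against 12.9 ± 1.05 TPM, whereas its paralog Sesn1 fell to 8.50 ± 0.345 TPM under the knockout label, against 18.7 ± 0.753 TPM in the controls. Fnip2 and Fnip1, partners of folliculin, rose 1.78-fold and 1.46-fold. Bmt2, which encodes the S-adenosylmethionine sensor SAMTOR, and Tfe3, a lysosomal transcription factor gene, fell by 0.53 and 0.40 on the log2 scale.

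**Figure D5:**
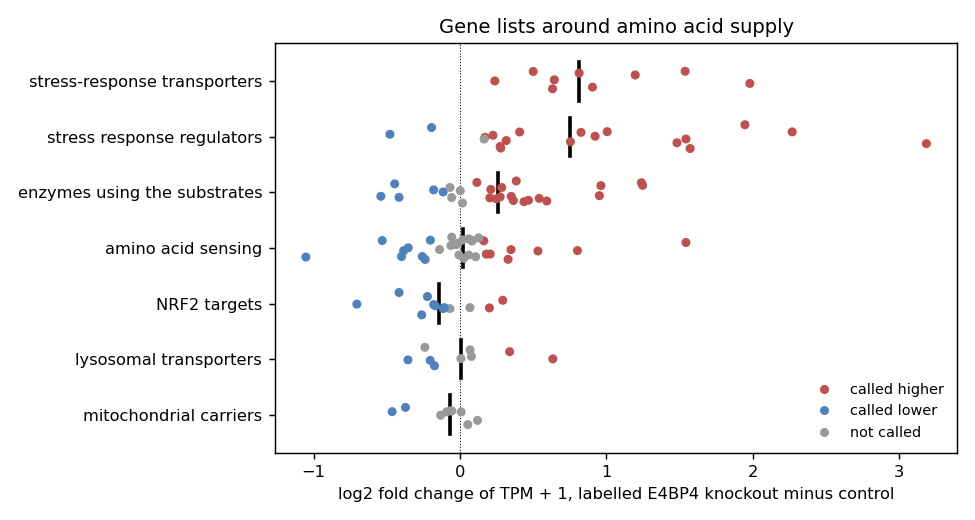
Log2 fold change of TPM + 1 in the libraries labelled E4BP4 knockout minus controls for the tested genes of 7 lists; each point is a gene, coloured by its limma call over all genes, and black bars are list medians. The medians are 0.81 for the stress-response transporters and 0.75 for the integrated stress response list (row named stress response regulators), against 0.26 for the enzymes, 0.02 for the sensing genes and −0.14 for the NRF2 targets; vertical scatter within a row has no meaning.

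Likeness to Slc7a11 in log2(TPM + 1) across the 6 libraries was ranked over 8608 tested genes with a mean of at least 5 TPM. The members and genes with Gm, Rik, Mir or Snor names were left out of this ranking. The closest were Zfp420, Arl14ep and Nfil3, with Pearson r of 0.99963, 0.99935 and 0.99929. Zfp420, a zinc finger gene, averaged 10.4 ± 0.340 and 2.01 ± 0.111 TPM, and Arl14ep averaged 58.7 ± 2.64 and 23.4 ± 0.709 TPM (SD, n = 3 each). The 6 points fall into 2 groups, 269 of the 8608 genes had an r of at least 0.99, and these values describe the split between the groups. Within the set, r with Slc7a11 ran from 0.8940 for Slc38a1 and 0.9628 for Slc7a1 to 0.9993 for Slc3a2.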

How the data were processed

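Per the labels, polyadenylated RNA was sequenced from NEBNext Ultra libraries. The submitters' processing notes name STAR 2.7.5a, HOMER 4.11.1, DESeq2 and mm10, without the role of each. The authors deposited TPM values for 25124 symbols with 1 RefSeq transcript each, and a table of 24421 symbols with stabilized log2 values per library, a log2 fold change and raw and adjusted p-values of their own comparison. Its header names the comparison WT vs. TG, with TG taken to mean the knockout label. For multi-mapped reads, the counting rule is not stated by the sources used here.

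The planned count model was replaced by limma, as the tables hold no counts. TPM values of at least 1 in at least 3 of 6 libraries were kept, log2(TPM + 1) was fitted in R 4.3.3 by limma 3.58.1 (limma-trend, no covariates, two-sided), and p-values were Benjamini-Hochberg adjusted over 11257 genes with a threshold of 0.05. Log2 fold changes are knockout label minus control and understate low genes, and ratios are of mean TPM. TPM multiplied by transcript length and divided by a step fitted for each library gave whole reads, used for depth and for limma-voom. The check covered 7892 to 9432 values per library, those with fewer reads and small rounding error. Of these, 100% lay within 0.1 of a whole number, where chance without a fitted step gives 20%. Other values were not checked. Shares were compared by exact permutation. On simulated data the fit recovered 28% of changes of 0.25 on the log2 scale, 84% of 0.5, 93.9% of 1 and 100% of 2. Of its calls there, 3.18% were false. Small differences that did not pass may thus have been missed.

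The members and gene lists were chosen with earlier results of these data known. All members were named. Each list added up to 3 called genes per direction, by log2 fold change, with at least 5 TPM in a group and no overlap. The 3 genes most like Slc7a11 outside the set, without Gm, Rik, Mir and Snor names, were also named. Other genes were named after their values were seen. Exons came from GENCODE M21 (GRCm38, the assembly of mm10), and promoters from RefSeq (GRCm38.p6). The alternatives were other pseudocounts, filters, scalings, value scales, a replicate block and leaving out each library. Replicate numbers do not pair the libraries.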

Additional observations from a re-analysis of the deposited data

How the results depend on the processing

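All 9 transporters were called higher in limma in each alternative in which they could be fitted: 20 alternatives for 8 genes and 16 for Slc7a11. The log2 fold changes ran from 1.43 to 2.41 for Slc7a11, 1.63 to 2.20 for Slc1a4 and 0.19 to 0.29 for Slc38a1, whose highest adjusted p was 0.0164. Slc7a11 could not be fitted with a TPM minimum of 5, nor without any 1 library labelled knockout, since fewer than 3 libraries then reached 1 TPM. With a filter on a mean of at least 1 TPM instead, an alternative added after seeing the data, its value was 1.51 to 1.55 with each library left out.

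Of 536 values under alternatives, 526 kept their direction and call or stayed within 1.5 times of the count, and 10 counts moved. Without a filter on low values, 5 of the other transporters were called higher in place of 2. The remaining moves were of counts of 1 to 3 genes in the other plasma membrane carriers and the NRF2 targets. With each replicate left out in turn, 8 to 9 of the 9 transporters were called higher and 0 lower, with 8 where Slc7a11 could not be fitted. The other transporters had 2 higher and 7 to 10 lower, and all genes had 2429 to 2902 higher and 2228 to 2585 lower. Upper-quartile scaling gave 2819 higher and 2929 lower genes, and limma-voom on recovered reads 3024 and 3143. No scaling moved the median of all genes by as much as 0.1 on the log2 scale.

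Over recovered reads in place of TPM, the differences in share were 3.42 percentage points for Slc7a11, over 1.5 times the 1.40 from TPM, 17.3 for Slc7a5, 10.95 for Slc1a4 and −7.87 for Slc38a1. The count of lower NRF2 targets was 6 to 9 over the alternatives, with 6 under a replicate block and 6 without a filter. With each replicate left out, the difference in share was 18.4 to 19.7 percentage points for Slc7a5, 1.33 to 1.44 for Slc7a11, 8.03 to 8.39 for Slc1a4 and −6.77 to −5.77 for Slc38a1, where an exact p cannot go below 0.2. The ratio of light chains to Slc3a2 differed by −0.101 to −0.0557.

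Libraries with the same replicate number did not deviate together (correlations of −0.0133, −0.0578 and 0.00302). With a replicate block, 2794 genes were called higher and 2503 lower, among them all 9 transporters higher, 2 other transporters higher and 7 lower, and the exact sign permutation p of the shares was 0.25, the smallest 3 pairs allow. Slc7a11 had the fewest reads of the set in every library, 95 to 107 in the controls.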

Other observations

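The 3 carriers called higher only without a filter on low values rested on few reads. Slc1a1, a glutamate and cysteine carrier, had 7, 15 and 13 reads under the knockout label and 2, 3 and 1 in the controls (log2 fold change 0.20, limma adjusted p = 0.0119 without a filter). Slc7a3, a further cationic amino acid carrier, had 4, 4 and 3 reads under the knockout label and 1, 0 and 1 in the controls (0.10, limma adjusted p = 0.0164). Slc7a14, a lysosomal member of the same family, had 24, 19 and 24 reads under the knockout label and 10, 14 and 9 in the controls (0.09, limma adjusted p = 0.0468). All 3 stayed under 1 TPM in every library.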
